A study of Bos taurus with 18 samples.

Results

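Theca and membrane granulosa cells of the same bovine preovulatory follicles were compared before the surge of luteinizing hormone (LH) that sets off ovulation. The difference was taken between 6 of the 18 arrays of the series: 3 of theca and 3 of membrane-associated granulosa, both from cows D, F and G. Every theca array thus had a granulosa partner from the same follicle. Each cow gave its single dominant follicle, taken before the surge and before gonadotropin-releasing hormone (GnRH) was given. The members were all 24016 probe sets of the Affymetrix array other than its controls. The series also holds granulosa cells obtained by aspiration (antral granulosa) of the same 3 follicles. It further holds all 3 populations of 3 further cows (A, B and C) taken 22 h after GnRH, which was used to induce the surge. Levels of these arrays appear only where they are named, but the spread behind every test was estimated from all 18 arrays. A sample label counts the same 22 h from the surge. The labels give the organism (Bos taurus) but neither breed nor age, and name no sort or gate for the cell populations, so each array reports a separated layer and whatever other cells came with it.

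Ovarian steroids are made by these layers together. Theca cells, outside the follicle's basement membrane, bind LH and turn cholesterol into androgen; granulosa cells, inside it, bind follicle-stimulating hormone (FSH) and turn that androgen into oestradiol with aromatase. Theca also holds the blood vessels, fibroblasts, smooth muscle and immune cells of the wall, whereas the granulosa layer has no vessels until the follicle has ruptured.

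Levels below are the deposited log2 signals of a gene's probe set, given for cows D, F and G in that order. Differences are theca minus membrane granulosa on the log2 scale, so that 1 is 2-fold, and each carries its standard error (SE) from a limma fit with the cow as a block. A gene is called higher or lower in theca where the Benjamini-Hochberg adjusted p of that fit, over all 24016 probe sets, was under 0.05. The files carry no detection calls, and a level of 4.62, the top of the dimmest 8005 probe sets, served as a floor. Where all 3 arrays of a population lay under it, the difference is written as "at least" and runs to the floor. Where another probe set of a named gene read above the floor on any array and was not called the same way, its value is given beside the gene. With 3 cows per population the number of arrays limits the precision, and in bulk samples fewer cells of a type and less RNA per cell cannot be told apart.

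Theca and membrane granulosa differed over a large part of the array. Of the 24016 probe sets 8234 (34.3%) were called, 3706 (15.4%) higher in theca and 4528 (18.9%) lower. Among the 9155 genes, each represented by its probe set with the highest mean, 3698 (40.4%) were called, 1933 (21.1%) higher and 1765 (19.3%) lower. Those gene shares are the background for every gene group below. Of the called probe sets 8178 (99.3%) went the same way in 3 of 3 cows, and the populations did not overlap for 9991 probe sets (41.6%), while 42.4% had an unadjusted p under 0.05. The rises were larger than the falls: the median difference was 1.01 over the genes higher in theca and -0.72 over those lower. Called with a 2-fold minimum were 3269 probe sets (13.6%), 1867 of them (7.77%) higher and 1402 (5.84%) lower. A difference of 4 or more was reached by 40 genes (0.437%), all higher in theca. Arrays of the same population correlated at 0.982 to 0.987 across probe sets and arrays of different populations at 0.919 to 0.955. In a principal component analysis of these 6 arrays PC1 took up 73.8% of the variance, with theca at positive and membrane granulosa at negative scores.

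**Figure D1:**
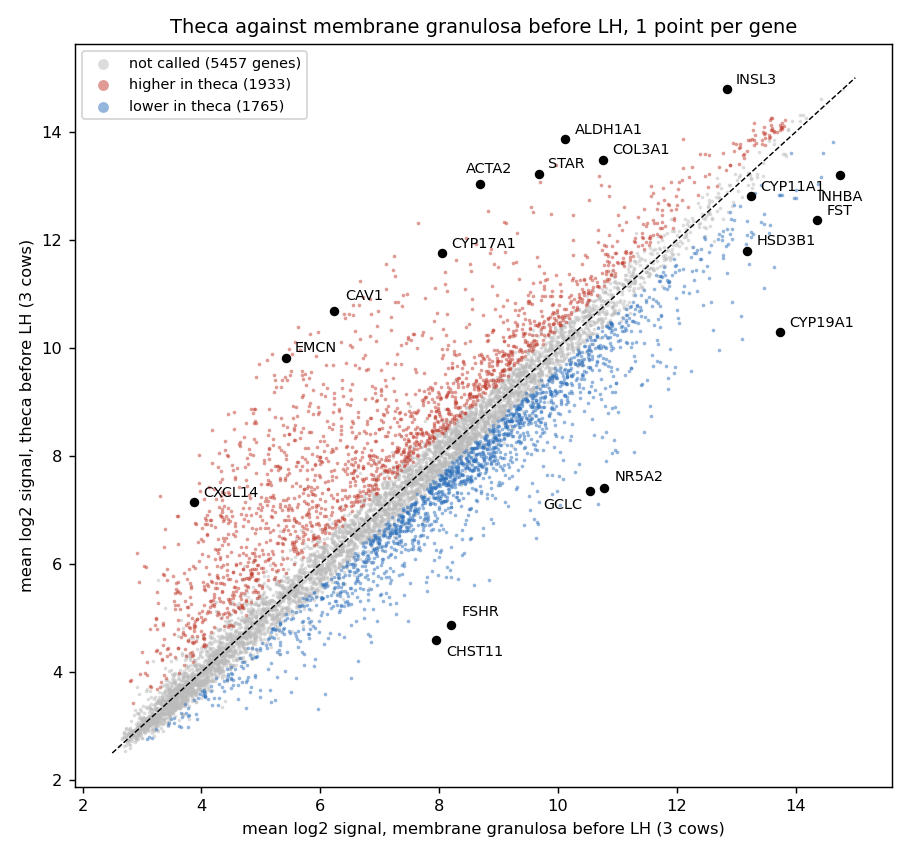
Mean log2 signal of each of 9155 genes in theca (vertical axis) against membrane granulosa (horizontal axis) before LH, 3 cows each, with genes called higher in theca in red, lower in blue and not called in grey, and the line of equal signal dashed. The 1933 genes higher in theca had a median difference of 1.01 and the 1765 lower ones -0.72, and EMCN, CAV1 and ACTA2 are among those farthest above it.

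Marker lists were used to check the labelled cell types. Of 15 measured granulosa markers 12 were called lower in theca, GATM, FOXL2 and IHH being the others, and 1 was called higher without cow F or against antral granulosa. Of 11 measured theca markers 8 were called higher and 1 (LHCGR) lower. The mean log2 level of the granulosa markers was 9.03, 8.83 and 8.11 on theca arrays, against 10.39, 10.54 and 10.34 on membrane granulosa arrays, with the lowest theca value in cow G. Granulosa transcripts were thus read on theca arrays too, CYP19A1 and INHA among them. The theca markers averaged 10.37, 9.97 and 10.44 on theca arrays, 9.12, 7.44 and 8.67 on membrane granulosa arrays and 7.39, 6.99 and 7.14 on antral granulosa arrays. Membrane granulosa of cows D and G thus stood above that of cow F in theca markers, and all 3 antral arrays stood lower still. Fibroblast and stroma markers ran likewise, at 9.86, 10.42 and 10.38 in theca, 8.32, 7.54 and 8.48 in membrane granulosa and 6.32, 6.48 and 6.17 in antral granulosa. These levels move with the size of many differences below, and their part in them was not tested. Several genes are therefore given also without cow F, or against the antral cells of the same follicles. That last comparison uses the same theca arrays and called 8899 probe sets (37.1%), whereas antral and membrane granulosa differed in 426 (1.77%).

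**Figure D2:**
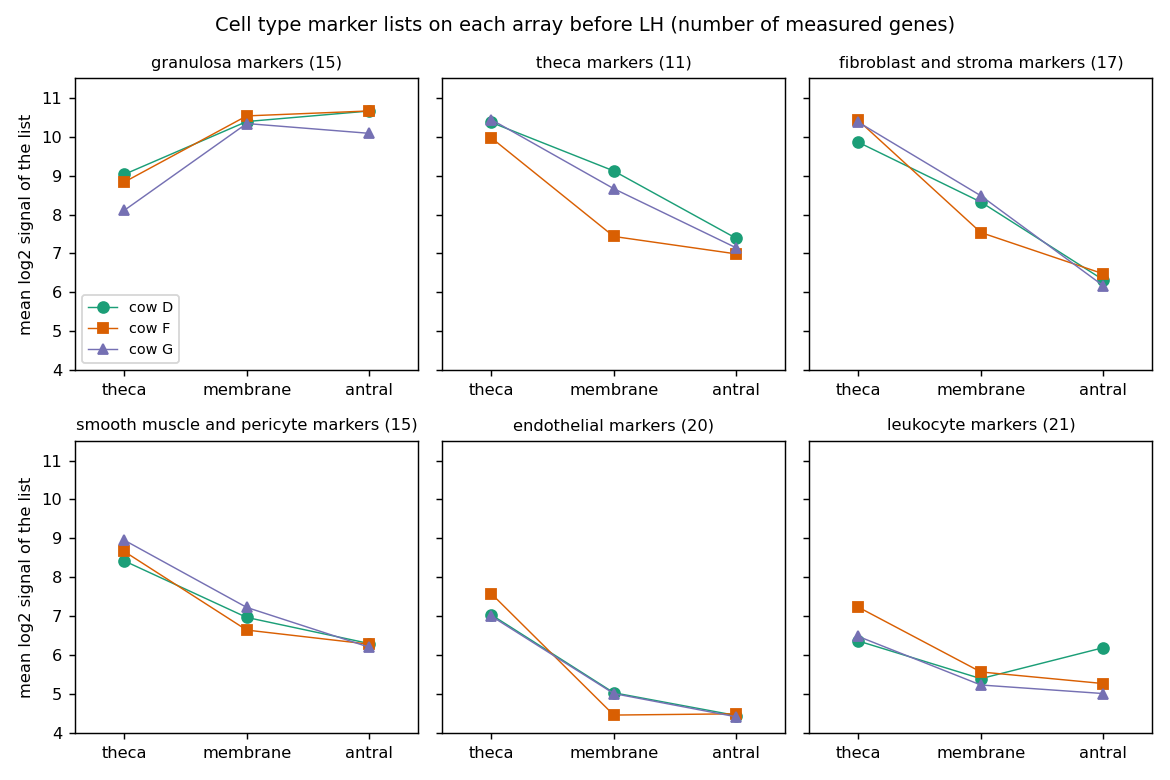
Mean log2 signal of 6 marker lists (vertical axis) on each theca, membrane granulosa and antral granulosa array of cows D, F and G (horizontal axis), 1 point per array, with lines joining arrays of the same follicle. Theca arrays are highest for theca, fibroblast, smooth muscle and endothelial markers, and membrane granulosa of cow F lies under that of cows D and G for all 4 of those lists.

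The steroid pathway was divided between the layers gene by gene. Of its 18 measured genes 6 (33.3%) were called higher in theca and 4 (22.2%) lower, the latter near the background. The median difference was 0.29, against -0.02 over all genes. STAR, which moves cholesterol into the mitochondrion where steroid synthesis begins, had levels of 13.57, 12.95 and 13.15 in theca, against 11.58, 7.81 and 9.66 in membrane granulosa. Every theca array lay above every granulosa array, and the granulosa arrays were far apart among themselves. The difference was 3.54 ± 0.80 (adjusted p = 0.00403), and without cow F it was 2.74 and no longer called (adjusted p = 0.0639). In antral granulosa STAR averaged 5.83 ± 0.76 (SD, n = 3).

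CYP11A1, the side-chain cleavage enzyme that makes pregnenolone, showed no such separation. It read 13.18, 12.23 and 13.00 in theca, against 13.70, 12.82 and 13.23 in membrane granulosa, overlapping ranges with a difference of -0.45 ± 0.50 (adjusted p = 0.551). A fit on the 9 arrays before LH alone called the same difference lower (adjusted p = 0.0284). FDX1, the ferredoxin that feeds electrons to that enzyme, was high in theca at 13.17, 12.37 and 12.90, against 11.22, 10.60 and 10.76 in membrane granulosa, a difference of 1.95 ± 0.21 (adjusted p = 2.69e-05). HSD3B1, which turns pregnenolone into progesterone, went the other way with 12.16, 11.22 and 12.03 in theca, against 12.83, 12.91 and 13.81 in membrane granulosa. All 3 theca arrays were lower, with a difference of -1.38 ± 0.30 (adjusted p = 0.00347), but the call rested on the pairing by cow (adjusted p = 0.277 without it). POR, the reductase that supplies microsomal P450 enzymes, was also lower in theca, with a difference of -1.67 ± 0.25 (adjusted p = 0.000242).

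The androgen and oestrogen steps were divided. CYP17A1, the theca enzyme that makes androgen precursors, had levels of 12.67, 10.48 and 12.11 in theca, against 10.42, 4.90 and 8.84 in membrane granulosa. Theca was higher in every cow, and the highest granulosa array, of cow D, lay just under the lowest theca array, of cow F. The difference was 3.70 ± 0.66 (adjusted p = 0.000815), and antral granulosa averaged 5.55 ± 0.23 (SD, n = 3). CYP19A1, the aromatase, showed the reverse with 10.85, 11.82 and 8.21 in theca, against 13.92, 13.69 and 13.59 in membrane granulosa. Theca of cow G was far lower than that of cows D and F, and lowest also for the granulosa markers as a list, and the difference was -3.44 ± 0.61 (adjusted p = 0.000833). HSD17B1, which turns oestrone into oestradiol, read 7.30, 7.76 and 7.81 in theca, against 9.63, 10.61 and 9.82 in membrane granulosa, and was lower, with a difference of -2.40 ± 0.29 (adjusted p = 5.62e-05). Other members called higher in theca were HSD17B10 (1.38 ± 0.13), HSD17B4 (0.54 ± 0.13, another probe set -0.19 and not called) and the outer mitochondrial protein TSPO (0.71 ± 0.23, adjusted p = 0.0276). CYB5A, the cytochrome that favours the lyase reaction of CYP17A1, was not called (0.09 ± 0.36, adjusted p = 0.877).

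**Figure D3:**
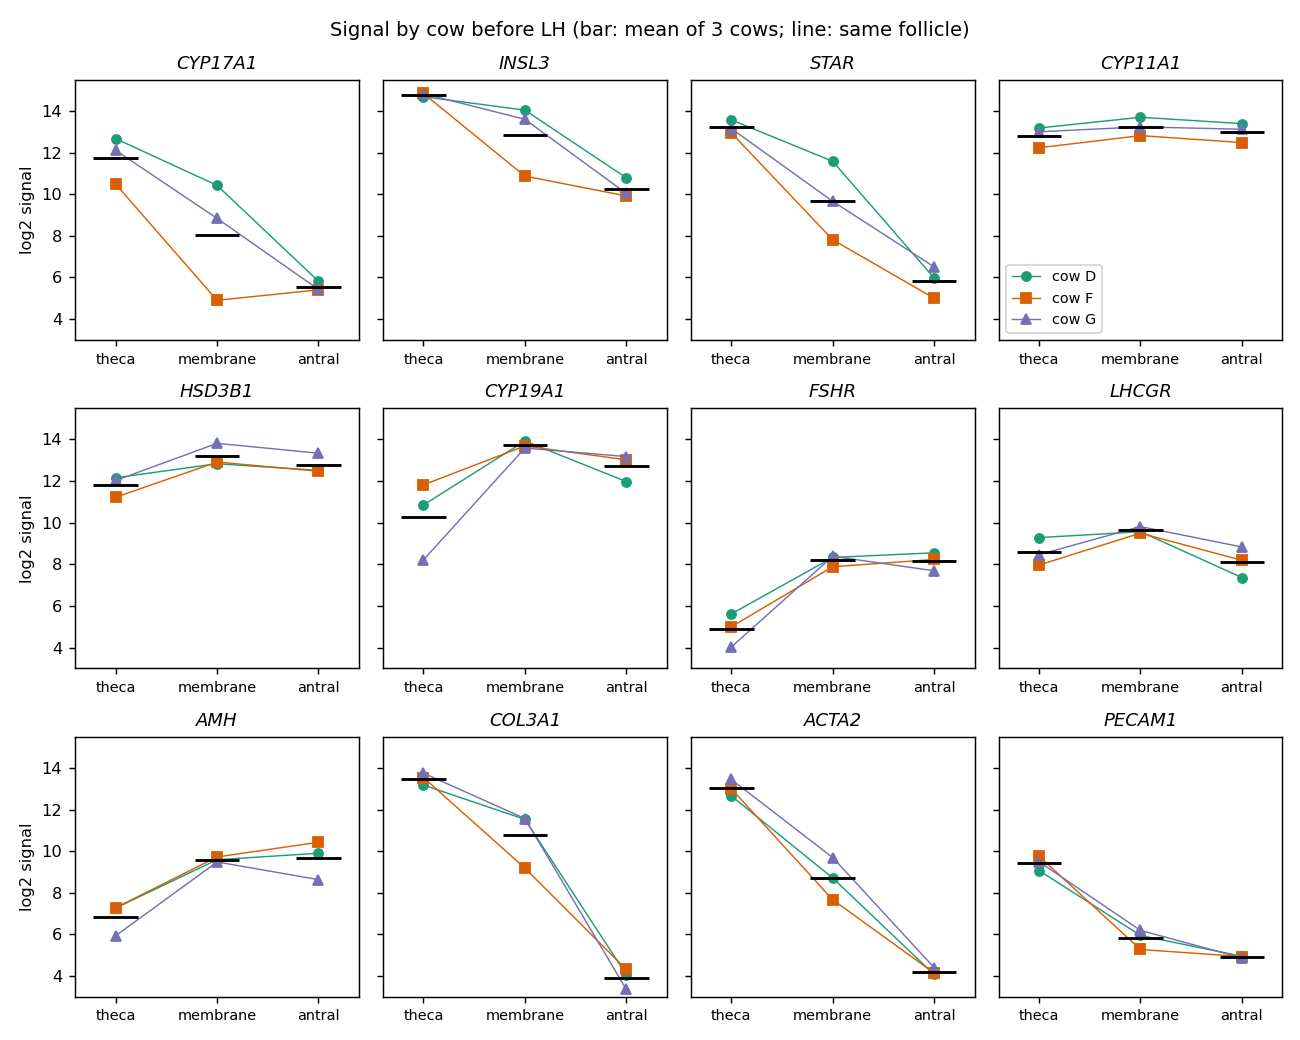
Log2 signal (vertical axes) of 12 genes in theca, membrane granulosa and antral granulosa before LH (horizontal axes), with 1 point per cow (D, F, G) a bar at the mean and lines joining samples of the same follicle. CYP17A1, STAR, COL3A1, ACTA2 and PECAM1 are highest in theca, CYP19A1, FSHR and AMH are lowest there, and the CYP11A1 ranges of theca and membrane granulosa overlap.

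Cholesterol supply was divided without a common direction. Of 24 measured genes of cholesterol synthesis and uptake 5 were called higher in theca and 5 lower (20.8% each way), near the background. The higher ones were MVK (1.34 ± 0.12, adjusted p = 9.57e-06), PMVK (1.02), MVD (0.60) and ACAT2 (0.75), early enzymes of the pathway, and the lysosomal carrier NPC2 (1.04). Lower in theca were the lipoprotein receptor LRP8, SOAT1, which esterifies cholesterol for storage, NPC1, which exports it from lysosomes, and the regulators INSIG1 (-0.94) and SREBF2 (-0.85). LRP8 had levels of 7.80, 6.33 and 6.10 in theca, against 10.27, 9.53 and 9.16 in membrane granulosa, a difference of -2.91 ± 0.44 (adjusted p = 0.000275). The differences were -1.46 ± 0.19 (adjusted p = 9.18e-05) for SOAT1 and -1.30 ± 0.13 (adjusted p = 1.8e-05) for NPC1. Against antral granulosa LRP8 missed the threshold (-1.14, adjusted p = 0.0595) and 3 genes of the list were called lower. The higher count was 3 without cow D, and also without the pairing. HMGCS1, SQLE, CYP51A1, DHCR7 and the high-density lipoprotein receptor SCARB1 (0.81 ± 0.37, adjusted p = 0.12) were not called.

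Receptor genes were split evenly, with 8 of 21 called higher in theca and 8 lower (38.1% each way). FSHR, the FSH receptor, read 5.61, 4.996 and 4.02 in theca, against 8.33, 7.88 and 8.38 in membrane granulosa, and 1 theca array was under the floor. The populations stood far apart, with a difference of -3.32 ± 0.28 (adjusted p = 6.27e-06). LHCGR, the LH receptor, read 9.28, 7.96 and 8.46 in theca, against 9.57, 9.50 and 9.81 in membrane granulosa. All theca arrays were below all membrane granulosa arrays and the gene was called lower (-1.06 ± 0.32, adjusted p = 0.0231), but not without cow F (adjusted p = 0.158) or cow G (0.106). Another LHCGR probe set above the floor on all 6 arrays differed by -0.92 and was not called (adjusted p = 0.169). Antral granulosa of the same cows read 7.36, 8.19 and 8.83, and theca minus antral granulosa was 0.44 (adjusted p = 0.31), the opposite sign. ESR2, the oestrogen receptor of granulosa cells, was lower in theca, with a difference of -1.09 ± 0.20 (adjusted p = 0.00095), with 1 theca array under the floor, while ESR1 and PGR lay under the floor on every array of both populations.

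Receptors for insulin-like ligands and orphan nuclear receptors separated the layers further. NR5A2 (LRH-1), a nuclear receptor needed for ovulation in mice, was among the largest falls, at 9.31, 6.43 and 6.48 in theca, against 11.32, 10.63 and 10.35 in membrane granulosa. Theca of cow D was higher than that of the other cows, and the difference was -3.36 ± 0.62 (adjusted p = 0.00103). Its relative NR5A1 (SF-1), an activator of steroid enzyme genes, was called higher in theca (0.66 ± 0.18, adjusted p = 0.0142), but not without cow D or cow G (adjusted p = 0.061 and 0.0645). The call rests on 1 NR5A1 probe set, as 2 others above the floor on all 6 arrays differed by 0.23 and -0.21 and were not called (adjusted p = 0.386 and 0.233). NR2F2 (COUP-TFII) had levels of 10.46, 10.35 and 11.15 in theca, against 8.22, 7.46 and 8.19 in membrane granulosa, and was higher by 2.70 ± 0.24 (adjusted p = 9.29e-06). NR2F1 (1.94 ± 0.21), the prostaglandin E receptor PTGER4 (2.48 ± 0.46), PTGFR (1.05 ± 0.34, another probe set -0.09 and not called), THRA (1.20 ± 0.12) and the glucocorticoid receptor NR3C1 (0.81 ± 0.15) were also higher. NR0B1 (DAX-1) was under the floor in membrane granulosa and at least 2.04 higher in theca (adjusted p = 4.95e-05), while another probe set, with 1 theca array above the floor, differed by 0.15 and was not called. IGF1R was lower in theca, with a difference of -1.77 ± 0.21 (adjusted p = 4.98e-05), and INSR (-1.36 ± 0.30, adjusted p = 0.00387) and OXTR, the oxytocin receptor (-0.73 ± 0.18, adjusted p = 0.0065), were lower as well. Another IGF1R probe set differed by -0.20 and was not called (adjusted p = 0.461).

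Peptide hormones of the granulosa layer were lower in theca. INHA and INHBA encode the inhibin alpha and activin beta A chains, and FST encodes follistatin, which binds activin. INHA read 14.08, 13.83 and 13.55 in theca, against 14.69, 14.49 and 14.67 in membrane granulosa, a difference of -0.80 ± 0.12 (adjusted p = 0.000291). INHBA read 13.57, 13.49 and 12.52 in theca, against 14.70, 14.76 and 14.76 in membrane granulosa, a difference of -1.54 ± 0.33 (adjusted p = 0.00277) whose call rested on the pairing (adjusted p = 0.121 without it). Both sat near the top of the array's range in membrane granulosa, INHBA within 0.1 of the array maximum on 3 arrays and INHA on 1, so the differences can be understated. FST, at 12.87, 12.77 and 11.45 in theca, against 14.44, 14.49 and 14.15 in membrane granulosa, differed by -2.00 ± 0.26 (adjusted p = 0.000102), and AMH, anti-Müllerian hormone, at 7.27, 7.28 and 5.93 in theca, against 9.59, 9.72 and 9.48 in membrane granulosa, by -2.77 ± 0.26 (adjusted p = 1.2e-05). For all 4 genes theca of cow G was the lowest array, as it was for the granulosa marker list.

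INSL3, the relaxin-like hormone of theca, read 14.68, 14.84 and 14.83 in theca, against 14.04, 10.87 and 13.60 in membrane granulosa. Theca arrays were alike and near the array maximum on 2 arrays, whereas membrane granulosa of cow F was clearly below that of cows D and G. The difference was 1.95 ± 0.53 (adjusted p = 0.0119), and without cow F it was 0.94 and not called (adjusted p = 0.115). IGF2, a growth factor of theca cells, read 10.91, 10.80 and 11.53 in theca, against 8.02, 5.54 and 7.76 in membrane granulosa, and was higher by 3.97 ± 0.44 (adjusted p = 2.83e-05). Another IGF2 probe set, near the floor in both populations, showed no called difference (adjusted p = 0.987). Of 15 measured genes of the insulin-like growth factor (IGF) system 4 were called higher and 3 lower (26.7% and 20%), near the background. Against antral granulosa 7 were higher. The binding proteins IGFBP3 (2.56 ± 0.31) and IGFBP6 (2.90 ± 0.43) were among the higher ones. PAPPA, a protease that frees IGF from its binding proteins, lay under the floor in theca and was at least 0.55 lower (adjusted p = 0.000243). IGF1 was not called.

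In the inhibin, activin and bone morphogenetic protein (BMP) group, 28 genes were measured, 6 (21.4%) called higher in theca, near the background, and 11 (39.3%) lower. Receptors and transducers of this family went in both directions. TGFBR2, the type II receptor for TGF-beta, had levels of 9.59, 9.82 and 9.28 in theca, against 5.95, 4.96 and 5.62 in membrane granulosa, and all 3 theca arrays were higher by a mean of 4.05 ± 0.34 (adjusted p = 6.07e-06). The ligand TGFB2 read 7.81, 7.23 and 7.66 in theca, against 4.44, 4.79 and 4.48 in membrane granulosa, where 1 of 3 arrays was above the floor, and differed by 3.00 ± 0.30 (adjusted p = 1.69e-05). Lower in theca were the BMP receptors BMPR1B (-1.22 ± 0.28) and BMPR2 (-1.87 ± 0.24), the activin receptor ACVR2B (-1.19 ± 0.25) and the signal transducers SMAD2 (-1.61 ± 0.13, adjusted p = 4.38e-06) and SMAD4 (-0.66 ± 0.16). SMAD3 was higher (1.03 ± 0.26), but another probe set, above the floor on all 6 arrays, differed by -0.17 and was not called. The inhibitors of differentiation ID1 and ID2 diverged, ID1 being higher (2.81 ± 0.33) and ID2 lower (-1.98 ± 0.21), and ID2 was not called without the pairing (adjusted p = 0.0719).

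Markers of the muscle cells and pericytes that wrap the follicle and its vessels were higher in theca for 11 of 15 measured genes and lower for 2, with a median difference of 1.81. ACTA2, smooth muscle actin, read 12.66, 13.00 and 13.45 in theca, against 8.71, 7.67 and 9.69 in membrane granulosa, and 4.07, 4.15 and 4.41 in antral granulosa. The theca arrays were alike, the membrane arrays varied by cow, and the difference was 4.34 ± 0.51 (adjusted p = 4.62e-05). TAGLN (4.24 ± 0.41), the smooth muscle myosin MYH11 (3.31 ± 0.28, adjusted p = 7.07e-06), the pericyte regulator RGS5 (4.51 ± 0.65) and TPM2 (2.95 ± 0.34) were also higher, and CALD1, under the floor in membrane granulosa, was at least 2.39 higher. CSPG4, a proteoglycan commonly used to mark pericytes, ran against the list with 5.41, 5.94 and 5.15 in theca, against 8.22, 7.34 and 7.82 in membrane granulosa, and was lower, with a difference of -2.29 ± 0.29 (adjusted p = 7e-05). MCAM was lower too (-0.99 ± 0.30, adjusted p = 0.0227), and 1 gene of the list instead of 2 was called lower without cow F, without cow G or without the pairing.

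Endothelial markers were called higher in theca for 18 of 20 measured genes, with a median difference of 3.02. PECAM1, an adhesion protein of endothelial junctions, read 9.07, 9.75 and 9.49 in theca, against 5.95, 5.27 and 6.19 in membrane granulosa. No arrays overlapped, and the difference was 3.63 ± 0.33 (adjusted p = 1.01e-05). EMCN, an endothelial surface mucin, read 9.69, 10.16 and 9.61 in theca, against 6.09, 4.36 and 5.82 in membrane granulosa, a difference of 4.39 ± 0.47 (adjusted p = 2.4e-05). CDH5 (3.14 ± 0.30), ROBO4 (2.99 ± 0.27), RAMP2 (4.32 ± 0.41), TEK (3.20 ± 0.34), SOX18 (3.86 ± 0.39), ERG (3.55 ± 0.36) and CLDN5 (3.04 ± 0.45) followed. FLT1, a receptor for vascular endothelial growth factor, read 7.31, 8.08 and 6.69 in theca and was under the floor on all membrane granulosa arrays, a rise of at least 2.74 (adjusted p = 1.8e-05). KDR and FLT4 were the 2 markers not called. VWF was called but lay under the floor on all 6 arrays, so it has no size here, and without cow F or cow G it was not called.

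Of the growth factors that act on vessels, VEGFA, VEGFC and PGF were lower in theca, and others were higher. VEGFA, the main vascular growth factor, had levels of 7.47, 7.07 and 7.53 in theca, against 10.25, 9.74 and 9.94 in membrane granulosa and 12.34, 11.38 and 10.08 in antral granulosa. Theca was lowest in every cow, and its difference from membrane granulosa was -2.62 ± 0.39 (adjusted p = 0.000242). VEGFC (-1.57 ± 0.19), PGF (-1.14 ± 0.25) and the oxygen-regulated factor HIF1A (-0.94 ± 0.13) were also lower in theca. EPAS1, a relative of HIF1A abundant in endothelium, read 10.74, 11.28 and 10.38 in theca, against 7.15, 5.91 and 6.92 in membrane granulosa, and was higher by 4.14 ± 0.57 (adjusted p = 0.000141). In the angiogenesis list 12 of 27 genes (44.4%) were called higher and 4 (14.8%) lower, against 21.1% and 19.3% of all genes. FGF1 (1.34 ± 0.15), FGF2 (1.38 ± 0.27), CXCR4 (3.17 ± 0.51), APLNR (2.49 ± 0.28) and NRP2 (1.99 ± 0.37) rose, and EDN1 rose by at least 2.55. The FGF1 and APLNR calls rest on 1 probe set each: 4 other FGF1 probe sets above the floor on all 6 arrays, 2 of them bright in both populations, differed by -0.22 to 0.28, and another of APLNR by 0.20, and these were not called. ANGPT1 and ANGPT2 were not called.

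Fibroblast and stroma markers were called higher for 13 of 17 genes and lower for THY1 (-1.02 ± 0.24), and 16 of 26 genes of the fibrillar matrix were higher and 3 lower. Of the stroma markers 2 were lower after quantile normalization and 0 against antral granulosa. COL3A1, a fibrillar collagen, read 13.17, 13.54 and 13.75 in theca, against 11.53, 9.18 and 11.57 in membrane granulosa and 4.07, 4.31 and 3.36 in antral granulosa. Membrane granulosa of cow F was the lowest of its group, as for the stroma markers, and the difference was 2.73 ± 0.68 (adjusted p = 0.00787). Without cow F COL3A1 (1.91, adjusted p = 0.0771) and COL1A2 (1.77, adjusted p = 0.0581) were not called, although both were called higher in theca than in antral granulosa. COL5A2 (3.78 ± 0.40, adjusted p = 2.23e-05), LUM (3.25 ± 0.35, adjusted p = 2.37e-05), DCN (2.94 ± 0.44), COL12A1 (4.07 ± 0.48), fibronectin (FN1, 3.07 ± 0.31), fibrillin (FBN1, 3.54 ± 0.53) and the cross-linking enzyme LOXL1 (3.95 ± 0.44) were higher. PDGFRA, a receptor of fibroblasts, was higher by 3.28 ± 0.53 (adjusted p = 0.000442), but another probe set of the gene was called lower (-0.55, adjusted p = 0.0195). The collagen-modifying enzymes PLOD1 (-0.66 ± 0.19), PLOD2 (-1.73 ± 0.22) and P4HA2 (-0.65 ± 0.18) were lower in theca, unlike LOXL1 and most of their list. Of that list 1 gene was called lower with a 2-fold minimum or without cow D, and 5 against antral granulosa.

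The basement membrane lies between the layers, and genes for its components were called mostly higher in theca. Of 13 measured genes 8 (61.5%) were called higher in theca and 2 (15.4%) lower, against 21.1% and 19.3% of all genes. NID1, a linker between laminin and type IV collagen, read 9.29, 9.74 and 10.62 in theca, against 5.999, 3.74 and 6.85 in membrane granulosa, a difference of 4.35 ± 0.56 (adjusted p = 9.06e-05). NID2 read 12.49, 11.87 and 12.56 in theca, against 10.27, 7.32 and 9.79 in membrane granulosa, a difference of 3.18 ± 0.50 (adjusted p = 0.000365). For both genes membrane granulosa of cow F was the lowest array. COL15A1 (4.15 ± 0.73), LAMA4 (3.00 ± 0.51), LAMB1 (2.89 ± 0.31), LAMC1 (0.91 ± 0.26) and COL4A1 (0.68 ± 0.15) were higher. For LAMC1 4 other probe sets differed by -0.02 to 0.50 and were not called. LAMB2 (-1.14 ± 0.18), a laminin chain, and SPOCK2 (-2.98 ± 0.34) were lower in theca.

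Proteoglycans and hyaluronan-binding proteins were called in both directions. Several small leucine-rich proteoglycans were higher in theca. ASPN read 9.56, 8.52 and 10.33 in theca, against 5.53, 4.25 and 4.96 in membrane granulosa, and OGN read 11.97, 11.76 and 12.39 in theca, against 8.998, 7.44 and 8.90 in membrane granulosa. The differences were 4.56 ± 0.36 (adjusted p = 4.58e-06) for ASPN and 3.60 ± 0.39 (adjusted p = 2.54e-05) for OGN, and FMOD was higher by 3.59 ± 0.61. VCAN, the large hyaluronan-binding versican, read 10.70, 11.01 and 10.05 in theca, against 12.96, 12.86 and 13.41 in membrane granulosa, and was lower, with a difference of -2.49 ± 0.25 (adjusted p = 1.67e-05). TNFAIP6, which links hyaluronan in the cumulus matrix (-2.74 ± 0.42, adjusted p = 0.000306), and SRGN (-2.15 ± 0.29, adjusted p = 0.000134) were also lower. In all 10 of 19 measured genes (52.6%) were higher and 4 (21.1%) lower, the latter near the background. The hyaluronan receptor CD44 was higher (2.03 ± 0.54), and PTX3, another protein of the cumulus matrix, was under the floor in membrane granulosa and at least 1.78 higher in theca.

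Among proteases and their inhibitors 11 of 27 genes (40.7%) were higher in theca and 5 (18.5%) lower, the latter near the background. ADAMTS1, which cleaves versican, rose by 2.63 ± 0.22 (adjusted p = 6.4e-06). TIMP1 (2.58 ± 0.26) and TIMP3 (2.38 ± 0.25), inhibitors of matrix metalloproteinases, rose together with MMP2 (3.10 ± 0.43), the urokinase gene PLAU (2.12 ± 0.34) and the collagen-degrading cathepsin CTSK (2.01 ± 0.28). The other plasminogen activator, PLAT, was lower in theca (-1.24 ± 0.20), as were its inhibitor SERPINE2 (-1.26 ± 0.18), ADAM12 (-1.75 ± 0.35) and ADAM10 (-0.65 ± 0.13, another probe set -0.97 and not called). Against antral granulosa 3 genes of the list were called lower.

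Several macrophage genes were higher in theca, while lymphocyte genes were not called. Of 21 leukocyte markers 10 were called higher, and at an unadjusted p under 0.05 12 were higher and 0 lower in the limma fit (1 was called lower without cow G). The complement subunit C1QA, made by tissue macrophages, read 10.54, 11.61 and 10.60 in theca, against 7.86, 8.12 and 7.30 in membrane granulosa, a difference of 3.16 ± 0.53 (adjusted p = 0.000595). The class II histocompatibility gene BOLA-DRA read 10.37, 11.54 and 10.42 in theca, against 7.36, 7.67 and 7.10 in membrane granulosa, a difference of 3.40 ± 0.54 (adjusted p = 0.000397). Antral granulosa was uneven here, with C1QA at 10.17, 7.94 and 7.06, and its array from cow D held a leukocyte marker level of 6.19, against 5.39 in membrane granulosa of that cow. CD14 was uncertain. Its probe set of highest mean lay under the floor in membrane granulosa and was at least 2.26 higher in theca, but another, above the floor on 3 theca and 2 membrane granulosa arrays, differed by 0.45 and was not called (adjusted p = 0.271). Against antral granulosa the first of these differed by 0.63 (adjusted p = 0.29). AIF1 (2.18 ± 0.45), CSF1R (1.34 ± 0.29) and TYROBP (2.13 ± 0.45) were higher. The general leukocyte marker PTPRC (0.48 ± 0.42, adjusted p = 0.433), the T cell genes CD3E and CD4 and the B cell genes MS4A1 and CD79A were not called.

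The wider list of complement and innate immunity had 23 of 35 genes higher, and 25 at an unadjusted p under 0.05, with 0 lower by either count in the limma fit. CXCL10, an interferon-induced chemokine, read 9.03, 8.86 and 8.56 in theca, against 5.66, 3.99 and 3.99 in membrane granulosa, where 1 of 3 arrays was above the floor, a difference of 4.27 ± 0.40 (adjusted p = 1.04e-05). CXCL12 (3.13 ± 0.38), CCL2 (2.93 ± 0.66) and C7 (3.35 ± 0.50) rose as well. CXCL14 was under the floor in membrane granulosa and at least 2.52 higher in theca (adjusted p = 3.13e-07). C4A (2.81 ± 0.45), the complement inhibitor SERPING1 (2.01 ± 0.34), the cathepsin CTSS (3.31 ± 0.44), ISG15 (1.79 ± 0.30) and MX1 (1.48 ± 0.30) were also higher. Against antral granulosa 1 gene of the list was called lower.

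Some of the largest rises lay outside these lists. CAV1, which builds the membrane pits called caveolae, read 10.32, 11.10 and 10.66 in theca, against 6.40, 5.99 and 6.32 in membrane granulosa and 3.95, 3.94 and 4.02 in antral granulosa. Its 3 cows agreed closely, and the difference was 4.46 ± 0.20 (adjusted p = 2.13e-07). CAVIN2, a partner of caveolin, headed the list at 10.15, 10.78 and 10.24 in theca, against 6.43, 4.23 and 6.21 in membrane granulosa, a difference of 4.77 ± 0.51 (adjusted p = 2.34e-05) with 2 of 3 membrane arrays above the floor. HPGD, which inactivates prostaglandins, read 9.82, 9.95 and 9.56 in theca, against 6.07, 4.15 and 5.10 in membrane granulosa, and was higher by 4.67 ± 0.33 (adjusted p = 2.98e-06). The others among the 20 largest rises were ITGBL1 (4.72), BRB (4.70), a ribonuclease, APOD (4.67), ASPN, SCG2 (4.56), CALCRL (4.52), the receptor partner of RAMP2, RGS5, RARRES1 (4.47), SPARCL1 (4.45), CLDN11 (4.44), EMCN, NID1, ACTA2, PLK2 (4.33), RAMP2, TM4SF18 (4.31) and LPAR6 (4.31). For PLK2 and LPAR6 1 of 3 membrane granulosa arrays was above the floor.

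The 20 largest falls ran from -3.57 to -2.83 and held CYP19A1, FSHR and NR5A2 beside less familiar granulosa genes. EFNA5, an ephrin that guides cell contacts, read 8.08, 7.48 and 5.75 in theca, against 10.85, 10.65 and 10.53 in membrane granulosa, the largest fall, with a difference of -3.57 ± 0.38 (adjusted p = 2.45e-05). GCLC, the rate-limiting enzyme of glutathione synthesis, read 8.17, 6.82 and 7.05 in theca, against 10.60, 10.67 and 10.35 in membrane granulosa, a difference of -3.19 ± 0.25 (adjusted p = 4.42e-06). Theca of cow G was again the lowest array for EFNA5, but not for GCLC. NOS2, the inducible nitric oxide synthase, read 8.31, 8.33 and 7.60 in theca, against 10.93, 11.51 and 11.38 in membrane granulosa, a difference of -3.20 ± 0.40 (adjusted p = 6.85e-05). CHST11 (-3.34), which sulphates chondroitin, had 1 of 3 theca arrays above the floor. CHST8 (-2.92), the adhesion protein CDH2 (-3.16), the lactate carrier SLC16A3 (-3.13), CLGN (-3.00), SPOCK2, OBSL1 (-2.95), MGARP (-2.94), LRP8, PRR15 (-2.91), the interleukin 6 receptor IL6R (-2.87), TOX (-2.86), the aminotransferase GPT (-2.85) and IGSF11 (-2.83) made up the rest. Other probe sets of SLC16A3 were not called (-0.36 and, under the floor on all 6 arrays, -0.38).

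Many cell cycle genes were lower in theca. Of 38 measured genes 17 were called lower and 3 higher, with a median difference of -0.59, and 10 were called lower without cow D. CCND2, the cyclin that FSH raises in rodent granulosa, read 9.89, 9.42 and 9.60 in theca, against 11.98, 12.38 and 11.53 in membrane granulosa, a difference of -2.33 ± 0.21 (adjusted p = 9.72e-06). The S-phase gene TK1 read 8.13, 7.94 and 8.13 in theca, against 9.84, 10.56 and 9.70 in membrane granulosa, a difference of -1.97 ± 0.19 (adjusted p = 1.26e-05). BIRC5 (-1.48 ± 0.19), NDC80 (-1.49 ± 0.21) and BUB1 (-1.11 ± 0.20), which act in mitosis, were lower as well. The exceptions were the cyclins CCND1 (0.58 ± 0.11) and CCND3 (1.41 ± 0.23) and the cell cycle inhibitor CDKN1C, at 9.92, 10.40 and 9.83 in theca, against 7.63, 5.86 and 6.03 in membrane granulosa, a difference of 3.54 ± 0.41 (adjusted p = 4.13e-05). Other probe sets of CDKN1C differed by 0.52 and 0.31 and were not called.

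Ribosomal protein genes rose by small amounts together. Of 30 measured genes 28 were called higher, with a median difference of 0.47, and RPS9 (1.17 ± 0.17) and RPL8 (1.03 ± 0.18) had values at the upper end. The count fell to 14 without cow G, 15 after quantile normalization and 16 in a fit on the 6 arrays alone. These genes lie near the top of the array's range, with a lowest mean level of 13.8 among the theca arrays.

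Antioxidant genes were mixed, with 11 of 30 called higher in theca and 4 lower. GPX3, the extracellular glutathione peroxidase (-2.09 ± 0.29), and GPX1 (-1.08 ± 0.17, another probe set -0.25 and not called) were lower beside GCLC, whereas PRDX6 (1.48 ± 0.15, adjusted p = 1.5e-05, another probe set 0.20 and not called), NQO1 (1.63 ± 0.27) and GSTA4 (1.08 ± 0.13) were higher. The higher count was 7 without cow F, without cow G or without the pairing, and the lower count was 7 after centring the arrays or against antral granulosa. Retinoid genes were also mixed, with 4 of 14 higher (28.6%) and 3 lower (21.4%), near the background. STRA6, the cell-surface retinol importer, read 9.41, 9.62 and 9.69 in theca, against 11.95, 12.47 and 12.29 in membrane granulosa, a difference of -2.66 ± 0.23 (adjusted p = 8e-06). ALDH1A1, which makes retinoic acid, read 13.99, 13.68 and 13.91 in theca, against 12.46, 7.23 and 10.68 in membrane granulosa and 6.83, 4.98 and 5.40 in antral granulosa, a rise of 3.74 ± 0.69 (adjusted p = 0.00113). CRABP2, a retinoic acid carrier, was under the floor in theca and at least 0.54 lower, a call lost without the pairing, as was that of RXRA. Without the pairing 2 retinoid genes were called higher and 1 lower, and 2 were higher without cow D, without cow F or against antral granulosa.

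Transcription factors of the gonad separated the layers in both directions, 11 of 20 higher in theca and 5 lower. GATA6, an activator of steroid and inhibin genes, read 12.23, 11.48 and 10.94 in theca, against 13.26, 13.25 and 13.14 in membrane granulosa, a difference of -1.66 ± 0.21 (adjusted p = 8.31e-05). FOXP1 (-2.59 ± 0.30, adjusted p = 4.06e-05) and TOX were lower too, although another FOXP1 probe set above the floor on all 6 arrays differed by -0.30 and was not called (adjusted p = 0.299). MEIS2 (2.24 ± 0.24, adjusted p = 2.4e-05) and IRX3 (1.36 ± 0.21) were higher, and MEIS1 and KLF4, both under the floor in membrane granulosa, rose by at least 1.29 and 2.57. GATA4 (-0.37 ± 0.23, adjusted p = 0.24) was not called, nor was FOXL2 (-0.43 ± 0.16, adjusted p = 0.0569), a factor that maintains granulosa identity in mice, although FOXL2 passed in 5 of the alternative fits.

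WNT genes were called in both directions, the lower ones at a share near the background, and no Hedgehog gene was called. Of 18 WNT genes 6 (33.3%) were higher in theca, 3 without cow F, and 3 (16.7%) lower, against 21.1% and 19.3% of all genes. DKK3, a secreted member of the Dickkopf family, read 9.50, 10.49 and 10.05 in theca, against 6.37, 6.78 and 6.44 in membrane granulosa, a rise of 3.48 ± 0.27 (adjusted p = 3.79e-06). SFRP1 (1.66 ± 0.28), WNT2B (1.09 ± 0.13, another probe set 0.09 and not called) and AXIN2 (1.07 ± 0.30) were higher, and CTNNB1 (-0.60 ± 0.12), TCF7L2 (-0.77 ± 0.19) and LGR4 (-0.54 ± 0.13) were lower, LGR4 not without cow G (adjusted p = 0.0671). Another LGR4 probe set differed by -0.04 and was not called (adjusted p = 0.947). After centring the arrays 6 WNT genes were called lower, and 5 in the fits on 6 or 9 arrays or with a random block. The Hedgehog pathway carries a signal of granulosa origin to theca in rodents. Of its 5 measured genes limma called 0, and 1 was higher at an unadjusted p under 0.05. IHH, the ligand, read 3.19, 3.40 and 3.49 in theca, against 3.49, 5.11 and 4.45 in membrane granulosa, where 1 array was above the floor (adjusted p = 0.412), and the receptor PTCH1 was under the floor on all 6 arrays. Single calls appeared without cow D (1 higher) and in the fit on 6 arrays or against antral granulosa (1 lower).

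Junction genes were called in 10 of 23 cases, 4 higher in theca (17.4%) and 6 lower (26.1%), near the background. CLDN11, a claudin of tight junctions, read 9.46, 11.14 and 10.20 in theca, against 5.71, 5.31 and 6.45 in membrane granulosa, a rise of 4.44 ± 0.41 (adjusted p = 9.7e-06), although another probe set of the gene differed by 1.00 and was not called (adjusted p = 0.0701). The desmosomal DSC2 rose by 2.90 ± 0.21 (adjusted p = 3.06e-06). GJA1, the gap junction protein connexin 43, read 13.86, 13.44 and 13.50 in theca, against 14.65, 14.28 and 14.43 in membrane granulosa, a difference of -0.85 ± 0.12 (adjusted p = 0.000126), and cingulin (CGN) had a difference of -1.91 ± 0.21 (adjusted p = 3.25e-05). Among 15 measured troponin and sarcomere genes 5 were higher and 1 lower. The skeletal muscle troponin TNNT1 read 10.26, 9.66 and 9.51 in theca, against 7.02, 6.61 and 6.52 in membrane granulosa, a rise of 3.10 ± 0.26 (adjusted p = 5.94e-06), and MYH7 rose by 1.87 ± 0.17 (adjusted p = 8.81e-06), with another MYH7 probe set at 0.11 and not called. TNNI3 was the lower one (-0.53 ± 0.19), a call not made by 7 of the alternative fits, among them those without cow F or without cow G, nor under the 2-fold minimum. Against antral granulosa 8 junction genes were higher.

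Of the red cell markers 12.5% were called higher in theca and of the oocyte markers 37.5%, against 21.1% of all genes. Of 8 measured red cell markers GYPC, also made by other cells, was the only one called (3.72 ± 0.39), and 1 was called lower without cow D. Of 8 oocyte markers KIT was higher at 9.40, 8.73 and 9.11 in theca, against 6.63, 5.33 and 6.72 in membrane granulosa, a difference of 2.85 ± 0.49 (adjusted p = 0.000691); this receptor for KIT ligand is also carried by theca cells. Another KIT probe set differed by 0.66 and was not called (adjusted p = 0.162). OOEP (2.08 ± 0.23) and ZP2 (at least 1.52) were called higher, ZP2 not without cow F (adjusted p = 0.0566). GDF9, BMP15, ZP3, ZP4 and NLRP5 were not called. Of the 8 red cell markers 4, and of the 8 oocyte markers 3, were under the floor on all 6 arrays. At an unadjusted p under 0.05 limma placed 2 oocyte markers lower, and 2 were called lower after centring the arrays.

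**Figure D4:**
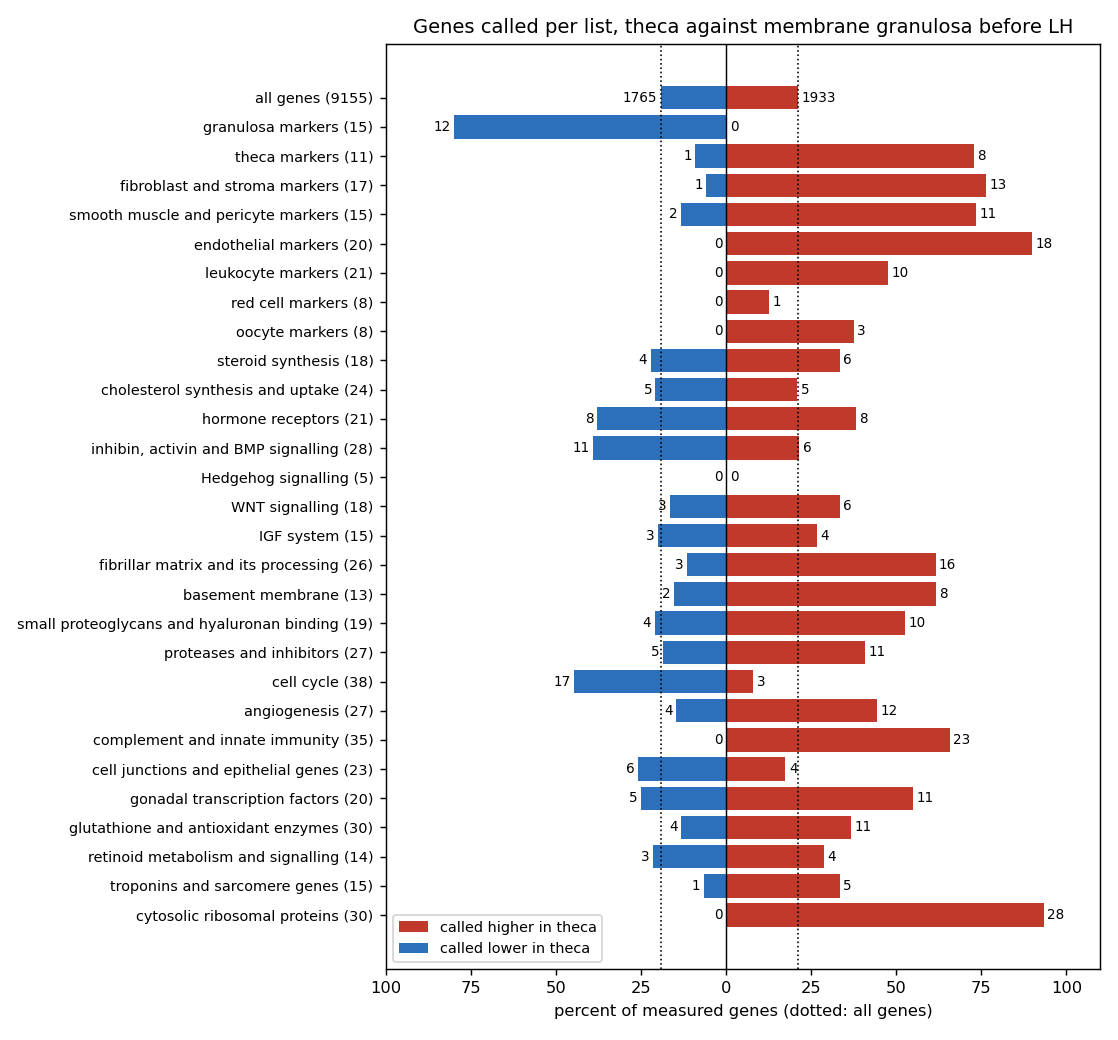
Percent of the measured genes of each list (number in brackets) called higher in theca, in red to the right, and lower, in blue to the left, with the counts at the bar ends and the shares over all 9155 genes dotted. Endothelial markers (18 of 20) and ribosomal proteins (28 of 30) extend farthest to the right and granulosa markers (12 of 15) farthest to the left.

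At 22 h after GnRH the same contrast, in cows A, B and C, called 6187 probe sets (25.8%). Of those called before LH 3709 (45.0%) were called the same way after LH, which is 59.9% of the calls after LH, and 299 (3.63% and 4.83%) were called the other way. A test of the difference between the contrasts, over different animals, called 2192 probe sets (9.13%), among them 1609 (19.5%) of those called before LH. That count was 1074 without cow A, 1190 without cow B and 1301 without cow G. Of the 159 named genes 57 passed this test, but most of them were chosen by their difference before LH, which enters it. PECAM1 differed between the layers by nearly the same amount before LH (3.63 ± 0.33) and after (3.62), and the test of the difference did not pass (adjusted p = 0.989). CAV1 was the extreme case of change, with 4.46 before LH and -0.94 after, a difference between the contrasts of 5.40 ± 0.28 (adjusted p = 3.58e-06). Its mean level before and after LH was 10.69 and 11.67 in theca, and 6.23 and 12.61 in membrane granulosa. CCND2 differed by -2.33 before LH and by 1.02 after (-3.34 ± 0.30, adjusted p = 8.02e-05), and BIRC5 by -1.48 before and 1.44 after (-2.92 ± 0.27, adjusted p = 8.99e-05). The test did not pass for FSHR (-3.32 before, -1.97 after, adjusted p = 0.0525) or CYP19A1 (-3.44 before, -0.69 after, adjusted p = 0.0703). After LH the CYP19A1 means were 3.97 in theca, under the floor, and 4.66 in membrane granulosa, just above it. The -0.69 is thus a difference between signals near the floor and no exact size. For FSHR the theca mean after LH, 4.26, was under the floor too.

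**Figure D5:**
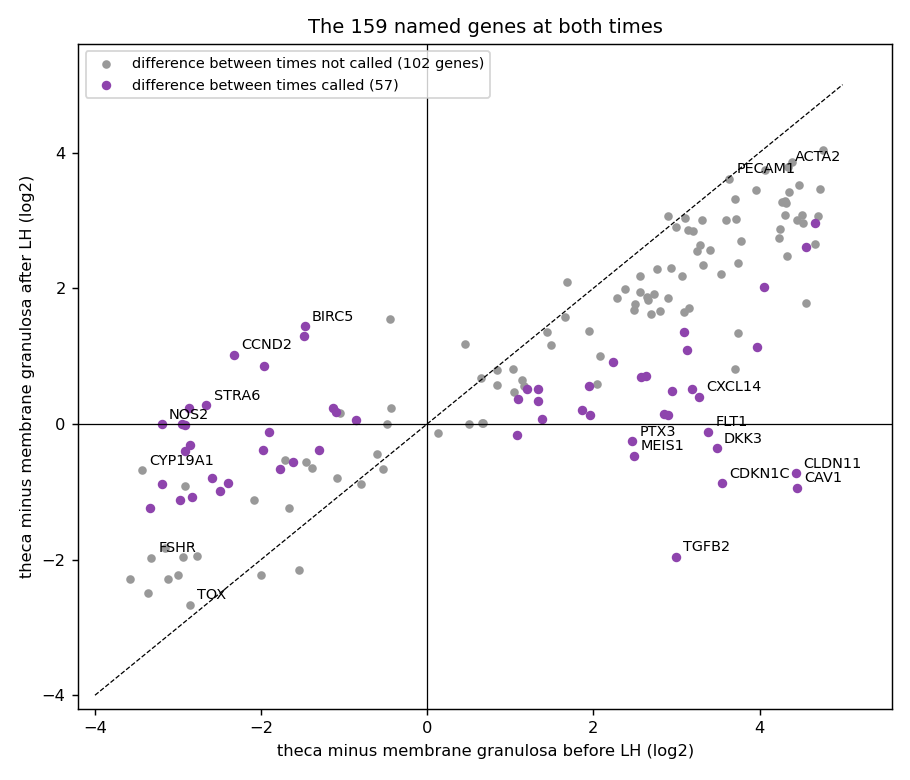
Theca minus membrane granulosa log2 difference of the 159 named genes before LH (horizontal axis, cows D, F and G) and after LH (vertical axis, cows A, B and C), with the 57 genes whose contrasts differed by the test marked apart from the 102 others and the line of equal difference dashed. CAV1, CLDN11 and TGFB2 lie far below the line, and CCND2 and BIRC5 above it.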

How the data were processed

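RNA from theca, membrane granulosa and antral granulosa of single dominant follicles was measured on Affymetrix 3′ expression arrays. Trizol and phase lock gel served for extraction and the GeneChip 3′ IVT Express kit for biotin labelling, per the labels' protocols. The deposited values were log2 signals made by the authors with RMA in Partek 6.5, per the submitters' processing notes; the settings are not given in the sources used here, and the log base was taken from the range of the values. Single values lay between 2.29 and 14.9, and array medians between 5.74 and 5.86. RMA pulls arrays towards a common distribution, and it compresses differences near the floor and the top of the range.

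Of 24128 probe sets 112 controls were left out. Platform annotation, which can be old, gave 1 symbol to 13292 probe sets, several to 86 and none to 10638, and 13263 gene IDs matched RefSeq. Of 9155 genes 2913 had more than 1 probe set, and each was represented by the probe set with the highest mean over the 18 arrays. limma 3.58.1 in R 4.3.3 fitted all 18 arrays with cell population by time and with the cow as a block, and contrasts were tested with empirical Bayes and Benjamini-Hochberg adjustment. Replicates are different cows. Deviations of theca and membrane granulosa from their group means correlated at 0.348, 0.151 and 0.300 for cows D, F and G, and the labels put them in the same follicle. Those of theca and antral granulosa correlated at -0.017, 0.205 and 0.162 in the same cows. Arrays of different cows were not correlated for comparison. On simulated data with 50 probe sets changed at each size, the fit found 18% of changes of 0.5, 76% of 1, 98% of 2 and 100% of 4, with 13 false among 159 calls over 24016 probe sets. Far fewer probe sets changed there than the 8234 called in the data. The adjusted threshold was therefore stricter in the simulation, and its shares need not hold for the data. Tables and figures were made with Python 3.11.15, pandas 2.3.3 and matplotlib 3.10.9.

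The comparison and all lists were chosen with earlier results of these data known. The 28 lists held 669 genes, 506 of them measured and 60 in more than 1 list. Named were the 20 largest called rises and falls, up to 5 called members of smallest p per list and 28 measured key genes, 159 in all; 199 placeholder symbols were passed over. Other list members are named to account for a list and were chosen after their values were seen. Alternatives changed the scaling, filter, choice of probe set, empirical Bayes prior, block, arrays fitted and granulosa population, or left out 1 cow.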

Additional observations from a re-analysis of the deposited data

Results flagged for a closer look

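For 57 of the 159 named genes the difference between theca and membrane granulosa before LH (cows D, F and G) differed from that after LH (cows A, B and C), by the limma test of the difference itself. The values here are the contrast before LH minus the contrast after LH on the log2 scale, and they are not bounded at the floor. For PTX3, FLT1, CXCL14 and MEIS1 all 3 membrane granulosa arrays before LH lay under the floor, so their values are not exact sizes. After LH the theca and membrane granulosa means of CXCL14 (3.94 and 3.54) and CHST8 (4.11 and 4.51) were under it. The animals before and after LH are not the same. Over all probe sets the test called 9.13%, and of those called before LH 19.5%. Most named genes were chosen by their difference before LH, and the same arrays enter this test. That choice favours a larger contrast before LH, so the share of named genes passing is no measure of change.

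In the largest rises the contrast before LH exceeded that after LH by 1.71 for HPGD, 1.95 for ASPN, 5.40 for CAV1 and 5.17 for CLDN11. CLDN11 stood at 4.44 before LH and -0.73 after, with mean levels of 10.27 and 11.01 in theca and 5.82 and 11.74 in membrane granulosa. Among the largest falls the difference was -2.10 for CHST11, -3.19 for NOS2, -2.31 for GCLC, -1.85 for SPOCK2, -2.96 for OBSL1, -2.52 for CHST8, -2.89 for PRR15, -3.10 for IL6R, -2.53 for GPT and -1.74 for IGSF11. NOS2 stood at -3.20 before LH and -0.01 after, and IL6R at -2.87 before and 0.23 after.

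Of steroid and cholesterol genes, the value was 1.83 for FDX1, 1.31 for HSD17B10, -1.53 for HSD17B1, 0.83 for MVK and -0.91 for NPC1. Of receptors and their signalling, it was 1.38 for NR2F1, 0.70 for THRA, -1.27 for ESR2, -1.11 for IGF1R, -1.05 for SMAD2, 2.04 for TGFBR2, 4.96 for TGFB2 and -1.60 for ID2. TGFB2 stood at 3.00 before LH and -1.96 after, with mean levels of 7.56 and 8.75 in theca and 4.57 and 10.71 in membrane granulosa. Secreted factors of the WNT and IGF systems gave 3.84 for DKK3, 0.74 for WNT2B and 2.84 for IGF2.

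Matrix and wall genes gave 2.66 for NID2, -1.38 for LAMB2, 2.72 for PTX3, -1.50 for VCAN, 1.93 for ADAMTS1, 1.89 for TIMP1, 2.47 for TPM2, 1.73 for TNNT1 and 1.66 for MYH7. Vascular and immune genes gave 3.50 for FLT1, 1.00 for FGF1, 2.03 for CXCL12 and 2.86 for CXCL14. Junction genes gave 2.76 for DSC2, -1.80 for CGN and -0.91 for GJA1.

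Of the cell cycle genes lower in theca before LH, the value was -3.34 for CCND2, -2.82 for TK1, -2.92 for BIRC5 and -2.79 for NDC80, whereas the inhibitor CDKN1C gave 4.42. Transcription factors gave 2.95 for MEIS1, 1.33 for MEIS2 and -1.79 for FOXP1. The value was also past the threshold for KIT (2.71), GSTA4 (1.24) and STRA6 (-2.94). STRA6 stood at -2.66 before LH and 0.28 after.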

How the results depend on the processing

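The count of 8234 called probe sets moved by more than 1.5 times under 2 of the alternatives, both of which call from fewer candidates or ask for a larger change. With 1 probe set per gene 3823 were called (1990 higher in theca, 1833 lower), and with a 2-fold minimum 3269 (1867 higher, 1402 lower). It was 8413 after quantile normalization, 8811 after centring arrays on their medians (37.7% of them higher in theca, against 45.0% in the fit reported), 6778 in a fit on the 6 arrays alone and 7882 with the cow as a random block. Without the pairing by cow (no replicate block) 6491 were called, 3009 higher and 3482 lower. Leaving out 1 cow gave 5993 to 6883 called probe sets, 2666 to 3143 higher and 3221 to 3740 lower. The count for the difference between contrasts before and after LH was 1184 with 1 probe set per gene, 1016 without the replicate block and 1074 (without cow A) to 2192 (without cow C) with a cow left out, with 1190 without cow B and 1301 without cow G. Of 2219 values of named genes under alternatives 2164 kept their direction and their side of the threshold, 43 lost the call, 11 gained it and 1 reversed: LHCGR against antral granulosa (0.44, adjusted p = 0.310). The cause was not tested. With 3 cows per population, changes near 0.5 were found in a minority of simulated cases. Far fewer probe sets changed in that simulation than were called in the data, so its shares need not hold here. Genes under the floor have bounds only, except in the values before minus after LH, which carry none.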

Other observations

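Genes at the dim end of the range were called as well. Of the 1933 genes higher in theca 235 lay under the floor on all 3 membrane granulosa arrays, and of the 1765 lower ones 106 lay under it on all 3 theca arrays. By cow, the median difference over the genes higher in theca was 0.86 in cow D, 1.04 in cow F and 1.12 in cow G, and over the lower ones -0.67, -0.82 and -0.73 in the same cows. The cell cycle list, with a median difference of -0.59 before LH, had a median of 1.08 after LH in cows A, B and C.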
